A study of Mus musculus with 6 samples.

Results

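The major histocompatibility complex (MHC) of the mouse was examined as the stretch of chromosome 17 from 33.99 to 37.3 Mb, in coordinates of the mouse build mm9, one of the builds named by the submitters. All CAGE peaks that lie whole within these limits were taken, which gave 1309 of the 158966 peaks listed in the series. Of these, 220 were measured, meaning that they reached 1 CPM (counts of tags scaled to a common library total) in at least 3 of the 6 libraries, and these 220 stand among 19162 measured peaks in all. The stretch was divided by peak start into a first section (below 34.5 Mb; 349 listed and 53 measured peaks), a middle section (from there to 35.4 Mb; 552 and 95) and a last section (beyond that; 408 and 72).

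Cap analysis of gene expression (CAGE) reads RNA from its capped 5′ end, so a peak of tags marks a place where transcription starts and its level does not depend on transcript length. The cells were Ba/F3, a pro-B line derived from mice of the BALB/c strain and widely used to study oncogenic kinases. In 1 group (n = 3) the cells carried FLT3-ITD, the receptor tyrosine kinase FLT3 with an internal tandem duplication. In the other (n = 3), called the double mutant here, FLT3-ITD was joined by D835Y, a substitution in the activation loop of the kinase, as the titles give it. Another label numbers this position differently in each of the 3 double-mutant samples and matches the titles in 1 of them, and the titles were followed. All 6 libraries shared the parental line, and the medium named in the labels was RPMI-1640 with serum and antibiotics. The labels name no drug, no parental cells without FLT3, no promoter for the introduced gene and no number of clones. They also do not say that replicates were separate cultures, so p-values measure only how far these libraries spread, which may be technical.

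The MHC is the gene-dense stretch of the genome that holds the classical genes of antigen presentation. Class I molecules show peptides from inside the cell to cytotoxic T cells, and class II molecules, made mainly by B cells, dendritic cells and macrophages, show peptides taken up from outside to helper T cells. Between the class II genes and the next class I genes lies the class III stretch, which holds complement, heat shock and tumour necrosis factor genes beside many genes with general duties in the cell. In the RefSeq table for GRCm38, the class I gene H2-K1 comes first, followed by the class II genes from H2-Oa to H2-Ea, then the class III genes from Notch4 to Ddx39b, then H2-D1, the H2-Q and H2-T class I genes and, at the far end, the H2-M genes. From H2-K1 to H2-D1 the table lists 83 protein-coding genes. Psmb8 and Psmb9, subunits of the immunoproteasome that cut proteins into peptides, Tap1 and Tap2, which carry peptides into the endoplasmic reticulum, and Tapbp, which helps to load them onto class I molecules, lie near or among the class II genes. That table follows another build than the files, and 13 peaks of chromosome 17 lie past its last gene, so its order is given as background and no peak was assigned to a gene. Peaks are named by position. BALB/c mice carry another MHC haplotype than the C57BL/6 mice of the reference genome, and class I genes have near-identical copies. How tags that fit several copies were treated was not given in the sources used here, so peaks in such copies are uncertain.

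The libraries held 5884258 to 13977941 tags each, with FLT3-ITD replicate 2 the shallowest. A single tag was worth 0.0715 to 0.170 CPM, and a count of 0 leaves room for up to 3 tags, or 0.215 to 0.510 CPM by library. These floors cover counting error only.

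Most listed peaks of the MHC region were silent or close to it. No tag was found in any library at 717 of the 1309 listed peaks, and a further 372 had tags but were not measured. Silence was more frequent elsewhere. Tags were found at 592 of the 1309, against 54470 of 158966 listed peaks in the whole series and 2258 of 6228 in the rest of chromosome 17. The peaks that were not measured held 1.69% of the CPM of the region, summed over the 6 libraries. Measured peaks made up 16.8% of the listed ones, against 12.1% in the whole series and 13.2% in the rest of chromosome 17, and the neighbouring stretch of the same length before the region also had 16.8%. By section the share was 15.2%, 17.2% and 17.6%. Peaks with 1 CPM in exactly 3 libraries had a mean over the 6 libraries of 0.740 to 4.09 CPM (14 peaks), and those with 1 CPM in 2 libraries, just outside the rule, 0.668 to 1.11 CPM (17 peaks).

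Measured peaks were not spread evenly. Between 34342519 and 34724587, which spans the border of the first and middle sections, 156 peaks were listed and 0 were measured. No tag was seen at 148 of these 156. The other 8 together reached 0.390, 0.170 and 0.526 CPM in FLT3-ITD libraries, and 2.43, 1.29 and 1.29 CPM in those of the double mutant. The groups did not overlap, but such sums amount to a few tags in FLT3-ITD libraries, and the most active of the 8 peaks had a mean of 0.464 CPM. Of the 7 stretches of at least 100 kb without a measured peak, this one held the most listed peaks. The longest, 565 kb between 36408802 and 36974068 in the last section, held only 3. A stretch of 190 kb in the middle section, between 34784161 and 34973814, had 40 listed peaks, 33 of them without a tag. All 4 other stretches lay in the last section, with 23 to 30 listed peaks each.

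**Figure D1:**
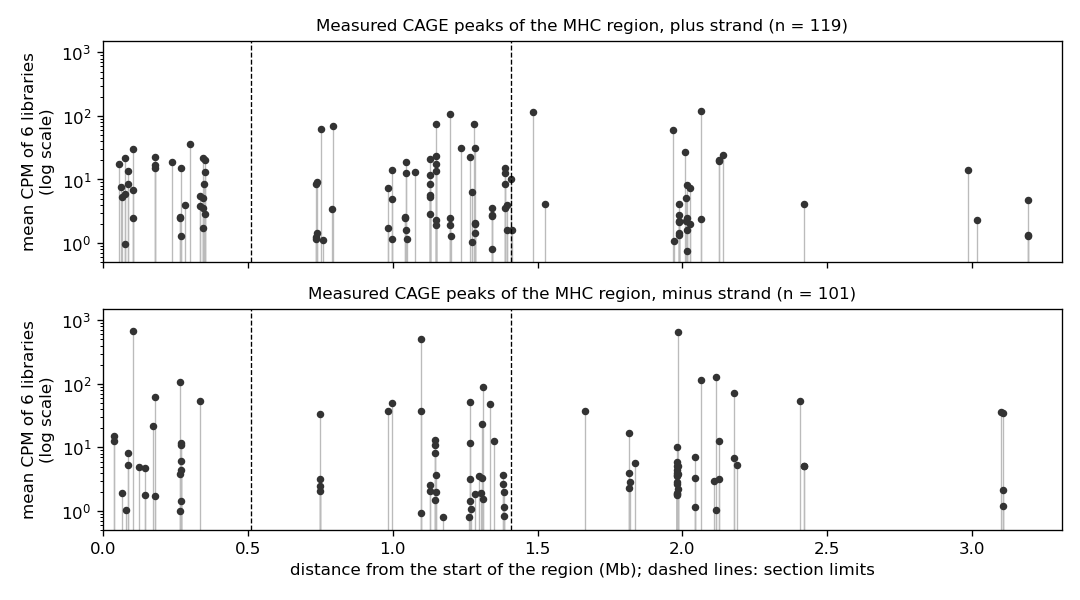
Mean level of each measured peak over the 6 libraries (CPM, log axis) against the distance from the start of the region in Mb, with the plus strand above and the minus strand below. Peaks stand in clusters with empty stretches between them, and the 3 highest, at 683, 502 and 656 CPM, are all on the minus strand, 1 in each section.

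The level of the region rested on few starts. In the first section the most active peak alone held 49.9% of the summed level, in the last section 37.6%, and in the middle section 28.5%. That was not particular to the region, since the share was 52.5% in the neighbouring stretch of the same length before it. Over the 822 measured peaks of the rest of chromosome 17 it was 12.5%. The median measured peak stood at 6.88 CPM in the first section, 3.54 in the middle and 3.98 in the last, against 5.83 CPM over all measured peaks. Only 9 of the 220 had a mean of at least 100 CPM (2, 2 and 5 by section) and 51 had a mean under 2 CPM. In the whole series these were 1378 and 4523 of 19162. Median peak width was 32.0, 33.0 and 40.5 bp by section and 35.0 bp in the whole series.

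The strand with more measured peaks was not the same in all sections. In the first, 31 measured peaks were on the plus and 22 on the minus strand, in the middle 57 and 38, and in the last 31 and 41. Of these 41, 14 belonged to a single dense locus, and without it the plus strand had more peaks in the last section too. The peak list itself leans to the plus strand here, with 760 plus and 549 minus peaks listed in the region. The minus strand held more of the summed level in every section. Summed over the region, the minus strand held 2952 ± 114 CPM in FLT3-ITD cells, against 3621 ± 67.2 in the double mutant, and the plus strand 1428 ± 40.3 against 1749 ± 35.2 CPM (SD, n = 3). The most active peak of each section was on the minus strand, and the larger minus-strand sums rest in part on these single peaks. In FLT3-ITD cells their means were 621, 408 and 608 CPM by section. The whole minus strand held 901, 854 and 1196 CPM there, and the plus strand 295, 700 and 433 CPM. In the double mutant the single peaks had 745, 595 and 704 CPM, the minus strand 1153, 1108 and 1360 CPM, and the plus strand 387, 857 and 505 CPM.

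Measured peaks within 500 bp of one another, on either strand, were joined into loci. This gave 105 loci, of which 59 held a single peak and 46 held 2 or more. Peaks on both strands stood in 16 loci, 7 of them in the first section, 6 in the middle and 3 in the last. The locus with the most peaks, 14, lay on the minus strand of the last section between 35970990 and 35973676 and is described below.

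The series was made to compare promoters of the double mutant with those of FLT3-ITD cells. In the MHC region 53 of 220 measured peaks were higher in the double mutant and 11 were lower, while 156 did not pass (limma, Benjamini-Hochberg adjusted p under 0.05 over all 19162 peaks). Over the whole series 24.4% passed, 14.1% higher and 10.4% lower. The region thus had 24.1% higher and 5.0% lower, or 29.1% in either direction. DESeq2 on the recovered tags called 34 higher and 9 lower in the region, and 1702 higher and 1836 lower among all 19162 peaks. In the rest of chromosome 17, 18.9% of 822 measured peaks were higher and 8.03% lower. In the neighbouring stretch of the same length before the region, 10 of 67 were higher and 4 lower, and that after it had only 4 measured peaks. No test of the region against other regions was made. After TMM scaling, which sets libraries to a common scale by their typical peak, 51 peaks of the region were higher and 11 lower. The same scaling moved the share of higher peaks among those that passed from 57.6% to 49.9% in the whole series and from 82.8% to 82.3% in the region.

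The median difference of the 220 peaks, double mutant minus FLT3-ITD, was 0.25 on the log2(CPM + 1) scale, against 0.05 over all measured peaks. It was 0.33 in the first section, 0.24 in the middle and 0.13 in the last. With TMM scaling these medians were 0.29, 0.20 and 0.09, and that of all measured peaks 0.01. Without TMM scaling, the sign was positive at 159 of the 220 and negative at 61. Over all 19162 measured peaks it was positive at 10596 and negative at 8566. All 3 libraries of the double mutant stood above all 3 FLT3-ITD libraries at 90 peaks and below them at 17, where the whole series had 24.2% and 17.6%. Of these 107 peaks, 64 passed, which are all that did. Of the 220, 7 were measured only through the double mutant and 3 only through FLT3-ITD cells, and such peaks had to differ. Among the other 210, 50 were higher and 8 lower.

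**Figure D2:**
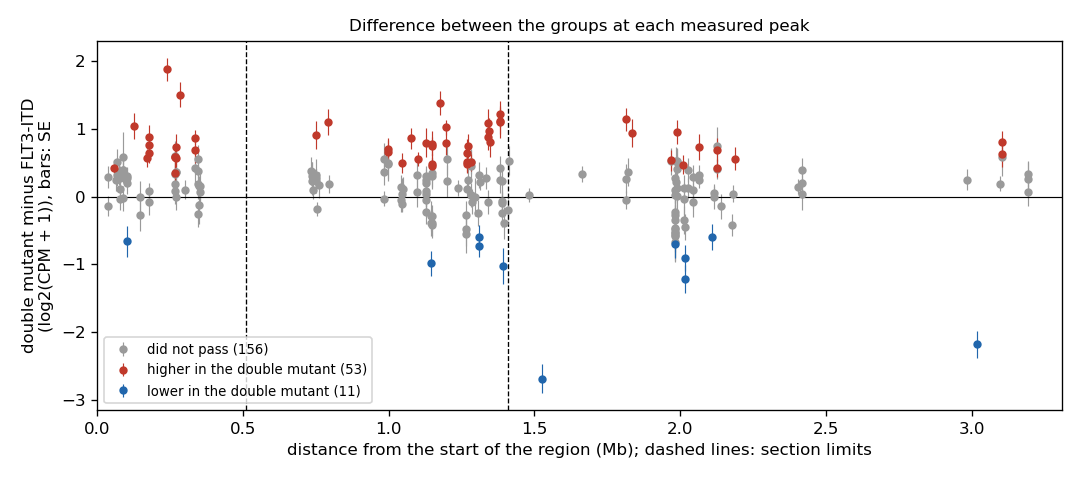
Difference between the groups at each of the 220 measured peaks (log2(CPM + 1) of the double mutant minus that of FLT3-ITD, bars give the SE) against the distance from the start of the region in Mb. Higher peaks (53) are scattered over all sections, and the 2 peaks with a difference below -2, both measured only through FLT3-ITD cells, stand in the last section.

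By section, 15 of 53 peaks were higher and 1 lower in the first, 27 of 95 higher and 4 lower in the middle, and 11 of 72 higher and 6 lower in the last. The shares higher were 28.3%, 28.4% and 15.3%, and those lower 1.89%, 4.21% and 8.33%. The whole series had 14.1% and 10.4%, so the last section stood close to it. Leaving aside peaks that were measured through 1 group only, 24 of 91 were higher and 4 lower in the middle section, and 11 of 68 higher and 3 lower in the last, while the first section still had 15 and 1. No such recount was made over the whole series. The count of lower peaks in the whole region was 6 without FLT3-ITD replicate 2 and 7 without FLT3-ITD replicate 3, where the middle section had 2 in each case, and the last section had 6 higher peaks without double-mutant replicate 1. The difference between sections was not tested. Of 119 plus-strand peaks 28 were higher and 6 lower, and of 101 on the minus strand 25 and 5. The whole series had 1360 higher and 1003 lower of 9643 plus-strand peaks. On its minus strand these were 1335 and 982 of 9519. Among peaks with a mean of 10 to 100 CPM, 24 of 65 were higher and 1 lower, where the whole series had 17.01% and 11.6% at that level. Among those of 2 to 10 CPM, 22 of 95 were higher and 9 lower (13.8% and 10.3% in the whole series). Under 2 CPM, 4 of 51 were higher and 1 lower (10.1% and 7.43%), and at 100 CPM or more 3 of 9 were higher and 0 lower (15.1% and 14.8%).

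Summed levels were higher in the double mutant in each section. The first section held 1197, 1313 and 1080 CPM in FLT3-ITD libraries against 1552, 1515 and 1552 CPM in those of the double mutant. In the middle section the sums were 1523, 1556 and 1584 CPM against 1963, 1993 and 1939 CPM. The last section had 1629, 1605 and 1653 CPM against 1899, 1816 and 1881 CPM. No section had overlapping groups. The mean of the double mutant was 1.29 times that of FLT3-ITD cells in the first section, 1.26 in the middle and 1.15 in the last. Over all measured peaks of the rest of chromosome 17 it was 1.10 times, and the groups did not overlap there either. In the neighbouring stretch of the same length before the region it was 1.16 times, also with no overlap. Without the most active peak of each section, the log2 ratio was 0.46 in place of 0.36 in the first, 0.26 in place of 0.34 in the middle and 0.19 in place of 0.20 in the last. Without its 3 most active peaks the middle section came to 0.18.

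**Figure D3:**
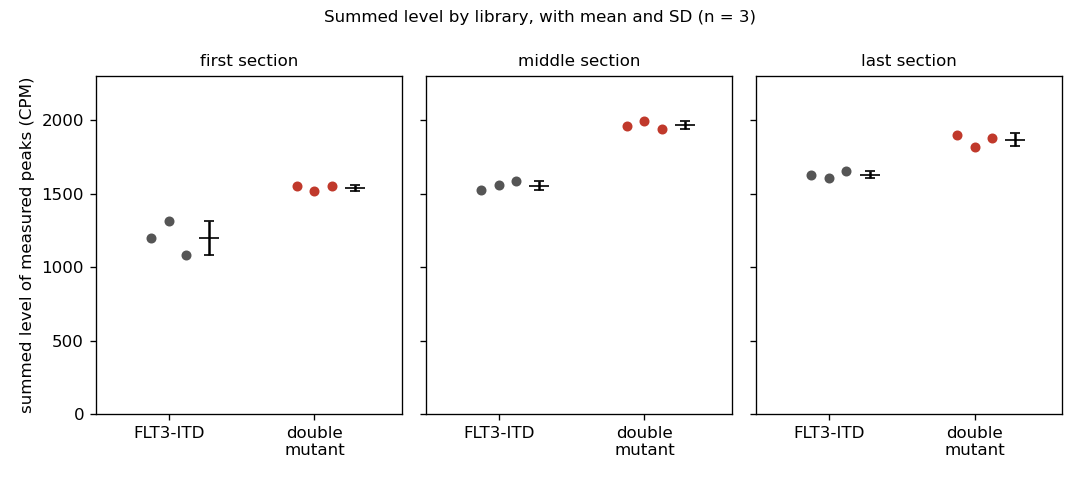
Summed level of the measured peaks of each section (CPM, axis from 0), 1 point per library, with the mean and SD of each group (n = 3) beside the points. In each section the 3 double-mutant libraries lie above the 3 FLT3-ITD libraries, and the first section has the widest spread among FLT3-ITD libraries, 1080 to 1313 CPM.

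In the first section the strongest start did not pass the test. At 34092603 to 34092631 on the minus strand, FLT3-ITD libraries had 633, 731 and 498 CPM, and those of the double mutant 764, 680 and 792 CPM. The groups overlapped, since double-mutant replicate 2 lay below FLT3-ITD replicate 2 (difference 0.28, SE 0.14, limma adjusted p = 0.16). A weak plus-strand start 137 bp away pointed the other way. At 34092768 to 34092846 it had 2.83, 3.40 and 3.51 CPM in FLT3-ITD cells, against 2.01, 2.36 and 0.890 CPM. It was the only peak of the section that fell (-0.66, SE 0.22, limma adjusted p = 0.047), and the call ended in 9 of 13 alternatives, among them the fits without FLT3-ITD replicate 1 (adjusted p = 0.069), 2 (0.13) or 3 (0.13) and without double-mutant replicate 1 (0.063) or 3 (0.18).

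On the log2(CPM + 1) scale the largest rise of the whole region was in the first section, at an isolated plus-strand start. This scale shrinks the changes of weak peaks, so the order of sizes holds on it alone. At 34229321 to 34229366 FLT3-ITD libraries had 8.87, 7.31 and 6.23 CPM, and those of the double mutant 36.8, 24.8 and 29.2 CPM, with no overlap. The difference was 1.88 (SE 0.17, limma adjusted p = 6.4e-06). Further along, at 34272526 to 34272616 on the same strand, 1.76, 1.36 and 1.67 CPM stood against 6.96, 5.29 and 6.92 CPM, a difference of 1.51 (SE 0.18, limma adjusted p = 7.4e-05). Both were joined to no other measured peak within 500 bp.

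A cluster of starts on both strands lay between 34168501 and 34169320. Its main peak, on the minus strand at 34168501 to 34168579, had 45.0, 46.2 and 48.5 CPM in FLT3-ITD cells, against 75.3, 87.8 and 76.7 CPM (difference 0.76, SE 0.11, limma adjusted p = 0.00032). Of the 5 peaks in the cluster 3 rose, 1 on the minus and 2 on the plus strand, and the others did not pass. Another active minus-strand start, at 34256262 to 34256285, moved less, from 87.5, 100.4 and 98.2 CPM to 112, 131 and 121 CPM. It passed narrowly (0.34, SE 0.11, limma adjusted p = 0.037) and lost the call in 10 of 14 alternatives, over which its adjusted p ran from 0.028 to 0.16. Among these were TMM scaling (0.060) and the fits without FLT3-ITD replicate 1 (0.16), 2 (0.071) or 3 (0.080) and without double-mutant replicate 3 (0.087). Another minus-strand start, near the far end of the measured part, at 34324273 to 34324290, had 37.0, 39.4 and 37.7 CPM against 72.2, 72.9 and 66.0 CPM. It was chosen after its values were seen, and the libraries of each group lay close together (0.87, SE 0.11, limma adjusted p = 0.00010).

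In the middle section the most active start rose. At 35089404 to 35089420 on the minus strand, 403, 445 and 376 CPM stood against 596, 586 and 604 CPM in the double mutant. The groups were far apart relative to their spread (0.55, SE 0.10, limma adjusted p = 0.0023). The next most active, at 35187342 to 35187395 on the plus strand, went from 67.5, 74.8 and 70.3 CPM to 158, 129 and 149 CPM, a difference of 1.02 (SE 0.11, limma adjusted p = 3.9e-05). A weaker start of the same locus, at 35187249 to 35187260, also rose, from 1.66, 1.36 and 1.58 CPM to 3.52, 3.58 and 3.06 CPM. The third most active start, at 35301789 to 35301796 on the minus strand, had 84.4, 73.2 and 87.9 CPM and 89.4, 93.1 and 103 CPM. Its groups did not overlap, but the difference did not pass (0.22, SE 0.11, limma adjusted p = 0.19).

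Several weak starts near the end of the middle section rose. On the minus strand, 3 of 4 starts between 35371941 and 35372762 were higher, of which that at 35372638 was measured only through the double mutant and so had to differ. At 35371941 to 35371979 levels were 1.66, 1.19 and 1.14 CPM against 3.27, 4.22 and 4.65 CPM (1.11, SE 0.19, limma adjusted p = 0.0011). At 35372160 to 35372205 they were 1.56, 1.53 and 2.46 CPM against 5.03, 6.72 and 5.04 CPM (1.22, SE 0.20, limma adjusted p = 0.00069). Summed over its 4 peaks, the locus held a mean of 5.25 CPM in FLT3-ITD cells against 13.8 CPM. That sum includes the start at 35372638, with means of 0.336 and 1.96 CPM, so part of its difference was fixed by the measured rule. On the plus strand before it, the starts at 35331447, 35332052 and 35332810 were also higher, with group means of 1.92, 1.65 and 0.209 CPM against 5.17, 3.84 and 1.39 CPM. These 3 were chosen after their values were seen, and the last of them had only 0.170 to 0.263 CPM in the FLT3-ITD libraries, at or under the floor of 3 tags, and was measured only through the double mutant.

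One start of the middle section had tags in the double mutant alone. At 35164801 to 35164813 on the minus strand, 0 tags were found in all 3 FLT3-ITD libraries, and levels were 1.76, 1.72 and 1.38 CPM in the double mutant. The double-mutant mean was 14.88 times the level of 3 tags over all FLT3-ITD libraries (0.109 CPM), which is not a lower limit. From the 59 pooled tags against 0, the exact 95% lower limit of the ratio of double mutant to FLT3-ITD was 11.85. That limit covers counting error only, not the spread between libraries or the way the peak was chosen, and is given as a description. This peak was measured only through the double mutant and so had to differ. No measured peak of the region had tags in FLT3-ITD cells alone.

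Falls in the middle section were fewer. At 35136254 to 35136286 on the minus strand, FLT3-ITD libraries had 7.90, 13.1 and 12.4 CPM, and those of the double mutant 5.20, 5.15 and 4.65 CPM (-0.99, SE 0.19, limma adjusted p = 0.0021). A nearby locus between 35137910 and 35138905, with 6 plus-strand starts and 1 on the minus strand, had no peak that passed as lower. There 3 of 7 peaks rose and the others did not pass. Of those others, the starts at 35138043, 35138513 and 35138887 had differences of -0.28, -0.41 and -0.39, and that at 35137910 had 0.35. At 35138513 the groups did not overlap. The most active peak of the locus, at 35138043 to 35138106, had 83.0 ± 10.0 and 68.8 ± 15.4 CPM (SD, n = 3) and did not pass (limma adjusted p = 0.20). Just downstream, the peak at 35138325 to 35138368 rose from 18.3, 17.7 and 16.5 CPM to 26.9, 35.1 and 28.5 CPM (limma adjusted p = 0.0016). At 35383948 to 35383978 on the plus strand, 3.61, 5.95 and 7.37 CPM stood against 3.10, 1.29 and 2.37 CPM (-1.03, SE 0.26, limma adjusted p = 0.013). That call ended without FLT3-ITD replicate 2 (adjusted p = 0.062) and without FLT3-ITD replicate 3 (adjusted p = 0.060).

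The largest differences of the region on the log2(CPM + 1) scale were in the last section, at solitary plus-strand starts with lower levels in the double mutant. Both starts reached 1 CPM in FLT3-ITD libraries alone and were measured only through them, so they had to differ, and their values are given as a description. At 35516553 to 35516582, FLT3-ITD libraries had 8.09, 6.80 and 8.51 CPM, and those of the double mutant 0.671, 0 and 0.494 CPM. The pooled libraries held 220 and 13 tags, and the difference was -2.69 (SE 0.22). At 37007047 to 37007087, in the sparse far end of the region, 4.0, 5.27 and 3.86 CPM stood against 0.168, 0 and 0.396 CPM, with 116 and 6 pooled tags (-2.18, SE 0.20). Double-mutant replicate 2, the deepest library, had 0 tags at both, and neither had another measured peak within 500 bp. Another site of lower levels, on the plus strand between 36005327 and 36005675, had 2 of 3 peaks lower, of which that at 36005563 was again measured only through FLT3-ITD cells. Its peak at 36005663 to 36005675 went from 3.32, 4.76 and 3.60 CPM to 1.51, 0.715 and 1.09 CPM (-1.22, SE 0.20, limma adjusted p = 0.00095), a peak chosen after its values were seen.

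Rises of the last section were smaller. At 35804270 to 35804293 on the minus strand, 2.53, 1.87 and 1.84 CPM stood against 6.13, 5.72 and 5.44 CPM (1.14, SE 0.17, limma adjusted p = 0.00050). At 35978768 to 35978779 on the plus strand, 2.92, 1.87 and 2.54 CPM stood against 5.79, 5.15 and 5.93 CPM (0.95, SE 0.18, limma adjusted p = 0.0022). A minus-strand start near the end of the region, at 37095382 to 37095445, rose from 20.9, 26.3 and 26.4 CPM to 47.6, 33.8 and 51.5 CPM (0.81, limma adjusted p = 0.0030) and was chosen after its values were seen.

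None of the 3 most active starts of the last section passed. At 35975164 to 35975188 on the minus strand, FLT3-ITD libraries had 640, 593 and 590 CPM, and those of the double mutant 705, 722 and 687 CPM. The groups did not overlap, and the difference was 0.21 (SE 0.099, limma adjusted p = 0.14). At 36106669 to 36106730 on the minus strand, 130, 118 and 125 CPM stood against 124, 128 and 134 CPM. These groups overlapped, and the sign of the difference (0.05, SE 0.10) turned with TMM scaling. At 36053922 to 36053938 on the plus strand, 99.9, 108 and 111 CPM stood against 151, 104 and 149 CPM. Here double-mutant replicate 2 lay within the FLT3-ITD range (0.32, SE 0.14, limma adjusted p = 0.11), and without it the difference was 0.49 with an adjusted p of 0.00064.

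The start at 35975164 was followed, on its own strand and 1512 to 4170 bp downstream, by the 14 weak peaks of the densest locus. Together these held 57.0, 59.5 and 75.0 CPM in FLT3-ITD cells, against 52.3, 34.3 and 54.4 CPM. As a percentage of the main start, that was 8.91, 10.0 and 12.7% against 7.42, 4.75 and 7.91%. The groups did not overlap in either measure, and double-mutant replicate 2 stood apart from the other double-mutant libraries. It was the lowest of all 6 libraries at 10 of the 14 peaks, while over the 220 measured peaks it was the lowest of the double-mutant libraries at 83 and the highest at 86. Among the 14 peaks the sign was negative at 11, and 1 passed, at 35972855 to 35972872 with 6.34, 7.65 and 5.70 CPM against 4.95, 2.58 and 3.66 CPM (-0.70, limma adjusted p = 0.024). The opposite signs of main start and downstream peaks were noticed after the values were seen.

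**Figure D4:**
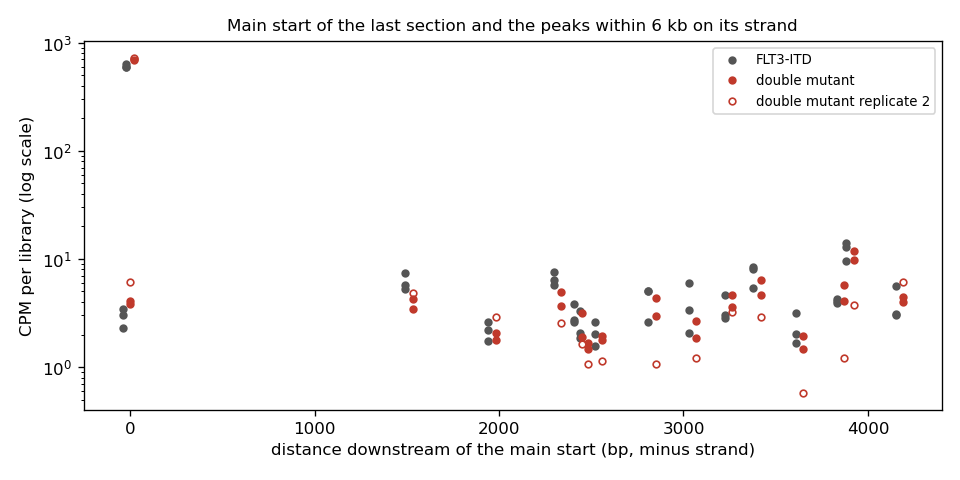
Level in each library (CPM, log axis) of the main start of the last section and of the peaks within 6 kb on its strand, against the distance downstream in bp; open circles mark double-mutant replicate 2. The main start lies between 590 and 722 CPM in all libraries, and at 10 of the 14 downstream peaks the open circle is the lowest point.

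In 12 of the 105 loci at least 2 peaks passed, with all that passed higher in 11 and all lower in 1, that between 36005327 and 36005675. No locus held both a higher and a lower peak. In all, 38 loci held a higher peak and 10 a lower one. Of all peaks of the region that passed, 82.8% were higher, against 57.6% in the whole series. Loci were not counted over the whole series, so nothing is read from the locus counts.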

How the data were processed

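CAGE peak levels of 6 Ba/F3 libraries (3 per group) were used. The authors deposited CPM, 1 value per peak and library, and each library sums to 1000000. Per the submitters' processing notes, TopHat2 2.0.14 and edgeR 3.24.3 were among the tools, with no role given. Dividing by the lowest positive value of a library turned 100% of its values into whole numbers (tolerance 0.01), taken as tags. Whether positions count from 0 or 1 was not given, and no mm9 annotation or sequence was used.

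Peaks with at least 1 CPM in 3 libraries were tested with limma 3.58.1 (trend, robust; R 4.3.3) on log2(CPM + 1) without covariates, fitted and adjusted over all 19162. Tests are two-sided. This scale understates changes of low peaks. edgeR 4.0.16 and DESeq2 1.42.0 on recovered tags, other scalings, filters and left-out libraries were alternatives. In simulated data for this comparison (18508 peaks), limma recovered 91% of 100 peaks changed by a fold of 2 and 100% of 100 changed by a fold of 4. The changed peaks were drawn from those with a mean over 2 CPM. Every simulated peak had the same spread beyond counting error, so these shares do not cover weaker or more variable peaks.

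Named in each section were the 3 most active peaks, the 2 largest rises and 2 largest falls that passed with a mean of at least 2 CPM and no overlap, and any peak with tags in 1 group only. The members and sections were chosen with earlier results of these data known. Planned gene lists and cell type markers were not used, since peaks are not paired with genes. The labelled cell type could not be checked for the same reason.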

Additional observations from a re-analysis of the deposited data

How the results depend on the processing

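Of 284 refits of the 21 named peaks, 258 kept direction and side of the threshold, 21 lost the call, 1 gained it and 4 changed sign. The 4 belong to the peak at 36106669 to 36106730, at -0.0051 with TMM scaling, -0.0071 with RLE scaling, -0.0041 with edgeR and -0.0067 with DESeq2. With a mean of at least 5 CPM, where fewer peaks are tested, 32 peaks of the region were higher and 3 lower (middle section 13 and 2, lower in the last section 1, in the first 0; whole series 1657 and 1259). With DESeq2, 34 were higher (first section 9, last section 6; whole series 1702), and the cause was not tested. With no filter on low values 10 peaks of the last section were lower. The single lower peak of the first section did not pass with a pseudocount of 0.25, edgeR, DESeq2 or the replicate block, where the count was 0. Leaving out single libraries gave 38 to 59 higher and 6 to 12 lower peaks in the region, 10 to 16 and 0 to 1 in the first section, 18 to 29 and 2 to 5 in the middle, 6 to 14 and 4 to 6 in the last, and 1807 to 2745 and 1215 to 2464 in the whole series. The log2 ratio of summed levels was 0.36, 0.34 and 0.20 by section. With TMM scaling it was 0.28 in the middle and 0.14 in the last, and left-out libraries gave 0.29 to 0.44, 0.32 to 0.35 and 0.18 to 0.21. With the replicate block 46 peaks of the region were higher and 10 lower. Numbers were not taken to pair libraries, since the deviations from group means of such pairs had correlations of -0.01, 0.02 and 0.19, and 3 of 6 libraries correlated best with their own number. Depth limits low peaks, since 1 tag is worth up to 0.170 CPM.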
